A study of Oryctolagus cuniculus with 9 samples.

Results

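The 4 osteoclast genes CTSK, CKB, ATP6V0D2 and DCSTAMP and the gene of osteoprotegerin, TNFRSF11B, were followed in rabbit cartilage. They were taken by gene symbol, with earlier results of these data known, and are 5 of the 14870 genes listed in the deposited tables, each present in a single row. Osteoclasts are large cells with many nuclei that form by fusion of precursors of the monocyte and macrophage lineage and resorb mineralized cartilage and bone. Their formation needs CSF1 and the ligand RANKL (TNFSF11), which binds the receptor RANK (TNFRSF11A) on the precursors and acts through TRAF6 and the transcription factor NFATC1. Osteoprotegerin, the product of TNFRSF11B, is a secreted decoy receptor that binds RANKL and keeps it from RANK, and it is made by chondrocytes and osteoblasts among other cells.

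The study set repair tissue under a collagen scaffold that carries chondroitin sulphate (CLCS) against an untreated defect and against healthy cartilage. All tissue came from New Zealand white rabbits of 4 to 5 months with a full-thickness osteochondral defect in the trochlear groove of both knees, the right knee with CLCS and the left without, and was taken 12 weeks after surgery. Healthy cartilage came from the condyle, so the healthy group differed from both defect groups in site as well as in injury. Each group had 3 libraries of polyadenylated RNA. The labels do not say which libraries came from the same rabbit, and p-values measure the spread between these libraries.

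The deposited counts were shallow, with 724986 to 1226408 reads on listed genes in a library and a median of 4 to 5 reads for a gene with a read. The paper lists far more aligned read pairs for each library than these counts hold, and the cause of the gap was not tested. A single gene, ENSOCUG00000023467, took 1.49% to 49.4% of the reads of a library. The mitochondrial gene ND6 took 86.0% to 94.4% of the reads of the 13 mitochondrial protein genes. ND6 lies on the opposite strand to the others, so the deposited counts may be of reads from a single strand only. This was not tested, and it would change what the read count of every member stands for. Untreated library 3 stood apart, with 505 reads of the cartilage collagen gene COL2A1 against 4061 to 20508 in the other 8 libraries and with 3069 reads of CTSA against 8 to 356. The members had 13 to 71 reads together in a healthy library, 82 to 193 in an untreated one and 31 to 93 in a CLCS one. Values are given as whole reads, which were recovered from the deposited values, and as normalized reads, which are reads divided by the authors' size factor for the library.

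CTSK had more reads in every untreated library than in any healthy one, and TNFRSF11B had fewer reads in every defect library than in any healthy one. No member passed the main test, which was limma on log2(normalized reads + 1) with Benjamini-Hochberg adjustment, in any of the 3 comparisons. Only CTSK and CKB passed its filter on low values, CTSK through the groups in which it was high, and ATP6V0D2, DCSTAMP and TNFRSF11B were not tested in it. The main test called 2.55% of 3496 genes in untreated against healthy, 3.16% of 3294 genes in CLCS against healthy and 0% of 3275 genes in CLCS against untreated.

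**Figure D1:**
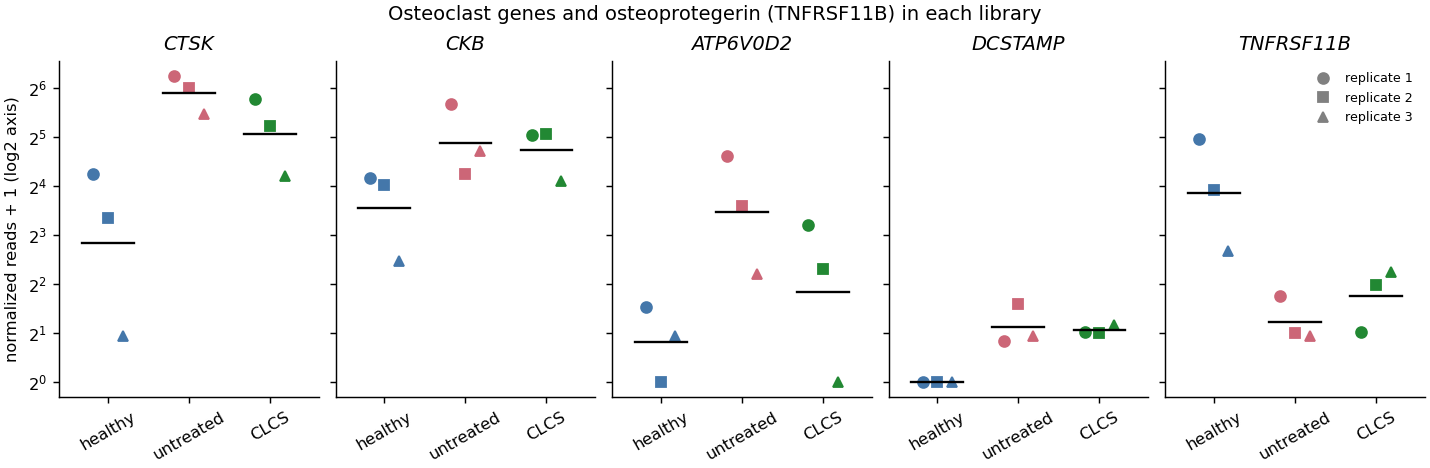
Normalized reads + 1 (log2 axis) of the 5 members in each of the 9 libraries, with 1 marker shape for each replicate number and a bar at the group mean on the log2 scale. The untreated libraries lie above the healthy ones for CTSK, all defect libraries lie below the healthy ones for TNFRSF11B, and the 3 healthy libraries of DCSTAMP lie at 0 reads.

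CTSK encodes cathepsin K, the cysteine protease with which osteoclasts degrade the collagen of the resorbed matrix. It had 19, 9 and 1 reads in healthy libraries 1 to 3, 95, 63 and 48 in the untreated libraries and 52, 37 and 14 in the CLCS libraries. The untreated and healthy groups did not overlap, whereas CLCS library 3, with 17.4 normalized reads, lay below healthy library 1, with 17.9. Mean normalized reads were 9.31 ± 8.50 in healthy, 60.5 ± 15.8 in untreated and 35.9 ± 18.2 in CLCS tissue (SD, n = 3 each). In bulk tissue, fewer cells of a type and less RNA per cell cannot be told apart.

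Between untreated and healthy tissue, the log2 fold change of CTSK was 3.07 (SE 0.79, 95% interval 1.21 to 4.93), with an adjusted p of 0.0980 by limma. An exact two-sided permutation test over the 6 libraries gave p = 0.1, the smallest p that 3 against 3 libraries allow. The call depended on the fit. CTSK was called by DESeq2 on the recovered reads (log2 fold change 2.70, adjusted p = 0.00408) and with a pseudocount of 5 (2.37, adjusted p = 0.0445), rules that called 7.77% and 3.03% of all genes tested. It was not called by edgeR's quasi-likelihood test after the same filter (2.69, adjusted p = 0.0923), which called 2.49%. With the replicate number as a block, limma called it as well (adjusted p = 0.0459, beside 2.69% of all genes tested), although the numbers of these libraries were not taken as pairs. Without untreated library 3, the limma log2 fold change was 3.29 (adjusted p = 0.170).

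Between CLCS and healthy tissue, CTSK had a log2 fold change of 2.23 (SE 0.83, 95% interval 0.30 to 4.16, limma adjusted p = 0.225). With the replicate number as a block, the same difference was called, with an adjusted p of 0.0406 by limma, and 3.79% of the genes were. Without healthy library 3, which held 1 read, the log2 fold change was 1.28 (adjusted p = 0.354). Between CLCS and untreated tissue, the log2 fold change was -0.84 (SE 0.44, 95% interval -1.87 to 0.20, limma adjusted p = 0.996), and the libraries of both groups overlapped. CTSK had fewer reads in the CLCS library of all 3 same-numbered pairs. With the replicate block its unadjusted p by limma was 0.0239, against 0.0974 without it, and its adjusted p was 0.884. The difference between CLCS and untreated tissue was not called, which does not show that the groups are alike. The pairing behind both block fits is not in the labels. It was taken from correlations across genes in these same data and is not established.

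CKB encodes the brain-type creatine kinase, which osteoclasts hold in quantity and which is also present in many other cells, where it buffers ATP. It had 18, 15 and 5 reads in the healthy libraries, 64, 18 and 28 in the untreated libraries and 31, 33 and 13 in the CLCS libraries. Untreated library 1 was far above the rest, and untreated library 2 exceeded the highest healthy library only after normalization, with 18 against 17 normalized reads. Mean normalized reads were 12.2 ± 6.74 in healthy, 31.3 ± 17.0 in untreated and 26.9 ± 9.28 in CLCS tissue (SD, n = 3 each).

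The log2 fold change of CKB by limma was 1.33 for untreated against healthy (SE 0.57, 95% interval -0.0042 to 2.67, adjusted p = 0.302) and 1.19 for CLCS against healthy (SE 0.52, 95% interval -0.02 to 2.40, adjusted p = 0.291). Both intervals reached 0, and CKB was called under none of the alternatives. For CLCS against untreated the log2 fold change was -0.15 (SE 0.45, 95% interval -1.20 to 0.91, adjusted p = 0.996). Its sign turned without untreated library 1, to 0.25, and without CLCS library 3, to 0.17.

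ATP6V0D2 encodes the d2 subunit of the membrane part of the V-ATPase, the pump that acidifies the space under an osteoclast, and it is also needed for the fusion of precursors. It had 2, 0 and 1 reads in the healthy libraries, 30, 11 and 4 in the untreated libraries and 8, 4 and 0 in the CLCS libraries. Every untreated library exceeded every healthy one, with 45 reads in sum against 3, while the CLCS libraries reached from 0 into the untreated range. Mean normalized reads were 0.929 ± 0.942 in healthy, 12.8 ± 10.1 in untreated and 4.07 ± 4.13 in CLCS tissue (SD, n = 3 each).

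Summed over a group, ATP6V0D2 was 14.0-fold higher in untreated than in healthy tissue per size factor, with a 95% interval of 4.50 to 70.6, and 3.10-fold lower in CLCS than in untreated tissue, with an interval of 1.61 to 6.44. These Clopper-Pearson intervals cover counting error only. The exact permutation test over libraries gave p = 0.1 for untreated against healthy, p = 0.4 for CLCS against healthy and p = 0.3 for CLCS against untreated. CLCS and untreated libraries of the same number were taken as pairs, and ATP6V0D2 had fewer reads in the CLCS library of all 3 pairs. The labels do not give these pairs, which were taken from correlations across genes in these same data. With the replicate block and no filter on low values, fits added after the data had been seen, its unadjusted p was 0.00566 by limma and 0.00593 by edgeR, against 0.0757 and 0.0152 without the block, and its adjusted p was 0.852 and 0.752. The difference between the defect groups was thus larger than counting error and alike in direction in every same-numbered pair, and it was not called over all genes.

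DCSTAMP encodes a membrane protein that osteoclast precursors need to fuse. It had 0 reads in all 3 healthy libraries, where a count of 0 allows up to 3 reads in sum. It had 1, 2 and 1 reads in the untreated libraries and 1, 1 and 1 in the CLCS libraries. Each of the 6 defect libraries thus held at least 1 read and no healthy library held any, yet the sum of 4 untreated reads was only at least 1.25-fold higher than the limit of 3 reads over the healthy group. No difference of DCSTAMP between any 2 groups was detectable from so few deposited reads.

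TNFRSF11B, the gene of the decoy receptor, showed the opposite order of groups. It had 32, 14 and 6 reads in the healthy libraries, 3, 1 and 1 in the untreated libraries and 1, 3 and 3 in the CLCS libraries. Every defect library lay below every healthy one, and the defect groups overlapped. Mean normalized reads were 16.6 ± 12.5 in healthy, 1.42 ± 0.815 in untreated and 2.57 ± 1.39 in CLCS tissue (SD, n = 3 each).

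In sum, TNFRSF11B was 11.1-fold lower per size factor in untreated than in healthy tissue (95% counting interval 4.47 to 35.7) and 6.57-fold lower in CLCS than in healthy tissue (2.97 to 17.1). The exact permutation test gave p = 0.1 for each of these comparisons. The ratio of CLCS to untreated tissue was 1.69, with a counting interval of 0.463 to 6.77 and an exact permutation p of 0.2, so a difference between the defect groups was not detectable from 7 and 5 reads.

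**Figure D2:**
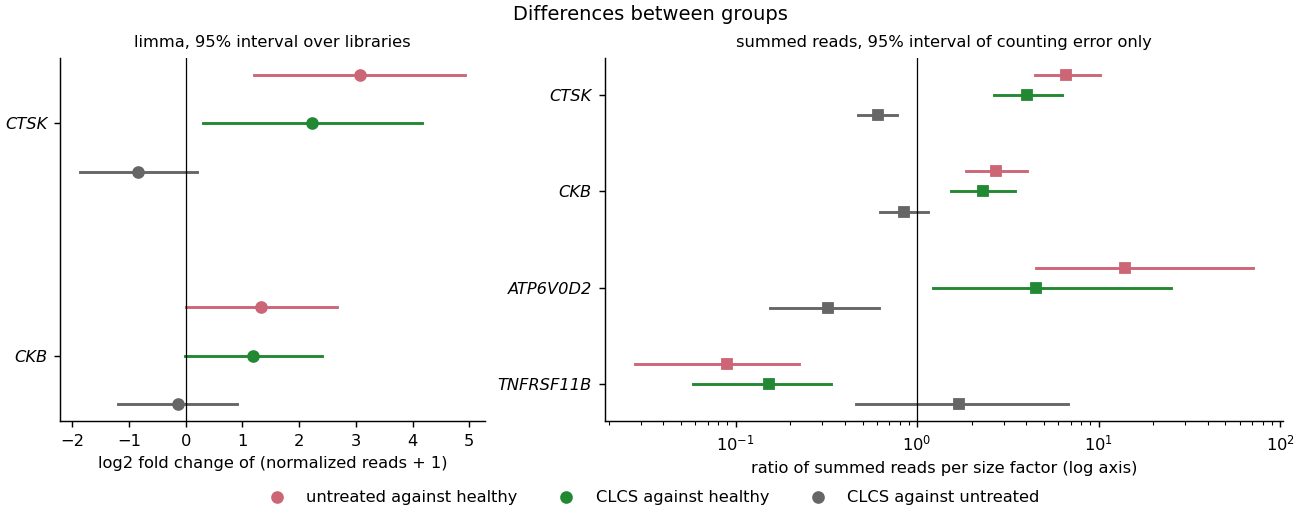
Left, limma log2 fold changes of CTSK and CKB with 95% intervals over libraries. Right, ratios of summed reads per size factor (log axis) with 95% intervals of counting error only, for 4 members in the 3 comparisons. CTSK, CKB and ATP6V0D2 lie above a ratio of 1 in both comparisons with healthy tissue, from 2.29 to 14.0, and TNFRSF11B lies below it, at 0.0899 and 0.152.

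To put all members in one test, edgeR's quasi-likelihood test was run on the recovered reads of every gene with a read, a fit that was added after the data had been seen. It called 3 of the 5 members in untreated against healthy, where it called 3.48% of 14300 genes. As the members were chosen with earlier results of these data known, this count supports no shift of the members as a set. CTSK rose (log2 fold change 2.71, adjusted p = 2.20e-06), ATP6V0D2 rose (3.63, adjusted p = 0.00238) and TNFRSF11B fell (-3.38, adjusted p = 0.00110), whereas DCSTAMP had an adjusted p of 0.580. DESeq2 without the filter called CTSK (2.70, adjusted p = 0.00486) and TNFRSF11B (-3.51, adjusted p = 0.0240) but not ATP6V0D2 (3.76, adjusted p = 0.0555), against 4.57% of the genes to which it gave an adjusted p. Limma without the filter called no member, with adjusted p of 0.129 for CTSK, 0.132 for ATP6V0D2 and 0.112 for TNFRSF11B, and it called 0.140% of all genes.

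The edgeR calls differed in whether they were kept when a library was dropped. CTSK kept its call whichever of the 6 libraries was dropped, untreated library 3 included. TNFRSF11B was lost without healthy library 1, which held 32 of its 52 healthy reads (log2 fold change -2.64, adjusted p = 0.107). ATP6V0D2 was lost without untreated library 1, which held 30 of its 45 untreated reads (adjusted p = 0.215), where its log2 fold change was 2.84. Without healthy library 2 it had a log2 fold change of 3.13 and was not called (adjusted p = 0.0995), in a fit whose calls over all genes fell from 497 to 240.

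In CLCS against healthy, the same edgeR fit called CTSK (log2 fold change 2.0, adjusted p = 0.00274) and TNFRSF11B (-2.59, adjusted p = 0.0127), against 2.89% of 13856 genes. DESeq2 without the filter called neither, with adjusted p of 0.118 and 0.0690, beside 5.65% of the genes. The CTSK call was lost without healthy library 2 (log2 fold change 1.99, adjusted p = 0.245), healthy library 3 (1.47, adjusted p = 0.123) or CLCS library 1 (1.61, adjusted p = 0.236). Calls over all genes fell in these fits as well, from 400 to 190, 317 and 214, and without healthy library 2 the size of the CTSK difference hardly moved. TNFRSF11B was called in 2 of the 6 such fits, those without healthy library 3 or CLCS library 3, and was lost without healthy library 1 or 2 and without CLCS library 1 or 2. In CLCS against untreated, edgeR called no member and 0.206% of all genes, and the smallest unadjusted p was that of ATP6V0D2 (0.0152, adjusted p = 0.907).

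All 5 members had untreated and healthy libraries that did not overlap, 4 of them higher and TNFRSF11B lower in untreated tissue. Of all genes with a read in these libraries, 12.6% had groups that did not overlap, 6.61% higher and 5.95% lower, and of the genes in the main test 22.0% did. In CLCS against healthy, the groups did not overlap for 2 of 5 members, DCSTAMP and TNFRSF11B, beside 12.8% of all genes with a read. In CLCS against untreated, no member had groups that did not overlap, beside 6.39% of all genes with a read. These counts describe members that were chosen with earlier results of these data known, and they support no shift of the set.

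CTSK and TNFRSF11B were also set side by side within each library, where the size factor plays no part, a view chosen after their values had been seen. All 6 defect libraries held more reads of CTSK than of TNFRSF11B, and all 3 healthy libraries held fewer. With 1 to 3 reads of TNFRSF11B in each defect library, the ratios of both genes that were computed rest on few reads. They are not given here, and the pattern is a description only.

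**Figure D3:**
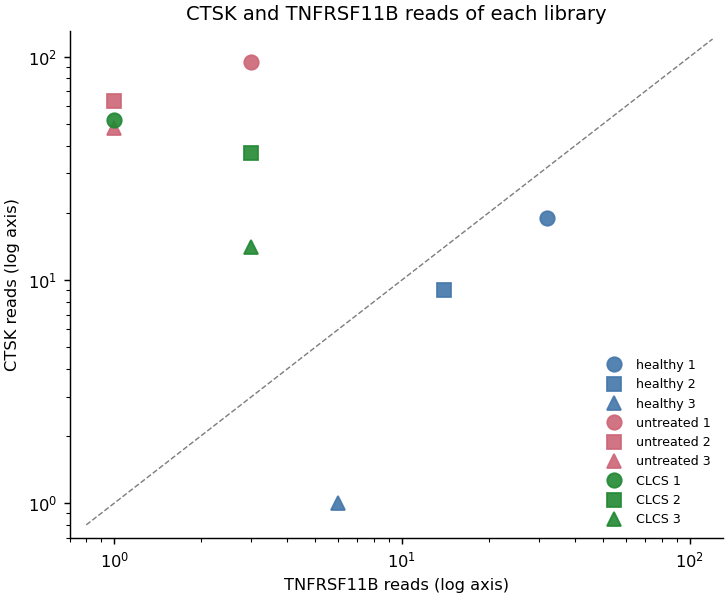
CTSK reads against TNFRSF11B reads of each library (log axes), with 1 color for each group and 1 marker shape for each replicate number. The dashed line marks equal numbers of reads, with no correction for transcript length, and the 3 healthy libraries lie under it while the 6 defect libraries lie above it.

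Reads of neighboring genes were looked up, because the strand setting of the count is not given in the sources used here and reads of overlapping genes may not be told apart. In the RefSeq table of the assembly mOryCun1.1, which is another build than that of the counts, TNFRSF11B overlaps COLEC10. COLEC10 had 13, 25 and 32 reads in the healthy libraries, 18, 10 and 20 in the untreated libraries and 12, 15 and 10 in the CLCS libraries. It was lowest among the healthy libraries where TNFRSF11B was highest. Healthy libraries 2 and 3 held more COLEC10 reads than any defect library, the same direction as TNFRSF11B, and healthy library 1 lay within the defect range. Whether the counts of both genes share reads was not tested. CTSK lies 631 bases from ARNT, which had 13 to 20 reads in healthy, 13 to 16 in untreated and 6 to 16 in CLCS libraries and did not follow CTSK. ATP6V0D2 overlaps PSKH2, for which no value is given here, and CKB and DCSTAMP have no gene within 1000 bases in that table.

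The other genes of the pathway were read from a list of 44 osteoclast and RANKL axis genes, the members included. Of these, 36 were matched by symbol, and 15 of the 36 had at most 5 reads in every library. ACP5, the tartrate-resistant acid phosphatase by which osteoclasts are usually identified, was among the 8 not matched by symbol and has no value here. In untreated against healthy, limma tested 8 of the 44 and called none, 4 being higher at an unadjusted p under 0.05 (8.64% of all tested genes were), with a median log2 fold change of 1.20 against -0.02 over all tested genes. CTSK, MMP9, CSF1R and TRAF6, the 4 genes, had their higher reads in the untreated libraries, through which such genes pass the filter, so this count and the medians of the list describe the tested genes and support no shift of the list. In CLCS against healthy it tested 6 and called 1, TYROBP, with a median of 1.5 against -0.08. In CLCS against untreated it tested 10 and called none, with none at an unadjusted p under 0.05 and a median of -0.24 against -0.004.

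Among the effectors, MMP9, the gelatinase that osteoclasts and neutrophils secrete, had a profile close to that of CTSK. It had 15, 7 and 1 reads in the healthy libraries, 77, 67 and 20 in the untreated libraries and 91, 49 and 18 in the CLCS libraries. Both defect groups lay above the healthy group, with limma log2 fold changes of 2.81 (SE 0.83, adjusted p = 0.139) and 2.96 (SE 0.81, adjusted p = 0.108), neither of them called. With the replicate block MMP9 was called in CLCS against healthy (limma adjusted p = 0.0144), and DESeq2 after the filter called it in both comparisons (adjusted p = 0.0118 and 0.00429). Unlike CTSK, MMP9 had a point estimate above 0 for CLCS against untreated, at 0.15 (SE 0.65), and whether the 2 genes differ in this was not tested. By reads, CTSK, MMP9 and ATP6V0D2 were each highest in library 1 of every group.

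CA2, the carbonic anhydrase that supplies protons to the V-ATPase, had 7, 9 and 5 reads in the healthy libraries, 12, 10 and 9 in the untreated libraries and 6, 7 and 2 in the CLCS libraries. Its CLCS libraries all lay under the untreated ones, with a limma log2 fold change of -0.80 (SE 0.36, adjusted p = 0.996). It was the only gene of the 36 whose CLCS and untreated groups did not overlap, beside 6.39% of all genes with a read. That count is no sign of a difference in CA2 or in the list. PLEKHM1, a lysosomal trafficking gene needed for resorption, had 11 to 23 reads in healthy, 15 to 21 in untreated and 8 to 20 in CLCS libraries.

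The ligands and receptors were near the limit of detection. TNFSF11, the gene of RANKL, had 0 reads in the 3 healthy libraries, 1, 2 and 1 in the untreated libraries and 0, 0 and 1 in the CLCS libraries. TNFRSF11A, the gene of RANK, had 0, 1 and 0 reads in the healthy libraries, 2, 1 and 1 in the untreated libraries and 8, 1 and 0 in the CLCS libraries. No ratio of TNFSF11 to TNFRSF11B was computed, because the RANKL reads were too few for one. TNFSF10, the gene of TRAIL, the other ligand that osteoprotegerin binds, was well measured, with 340, 224 and 181 reads in the healthy libraries, 179, 242 and 89 in the untreated libraries and 151, 192 and 58 in the CLCS libraries. Its groups overlapped, with log2 fold changes against healthy of -0.70 in untreated (limma adjusted p = 0.548) and -0.82 in CLCS tissue (adjusted p = 0.387).

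CSF1R, the receptor of CSF1 that osteoclast precursors share with all macrophages, had 5, 7 and 2 reads in the healthy libraries, 13, 15 and 18 in the untreated libraries and 11, 13 and 9 in the CLCS libraries. The untreated libraries all lay above the healthy ones, with a log2 fold change of 1.53 (SE 0.44, limma adjusted p = 0.135). TYROBP, the adaptor of the costimulatory receptor TREM2 in these cells, had 7, 8 and 10 reads in the healthy libraries, 17, 9 and 166 in the untreated libraries and 27, 29 and 28 in the CLCS libraries. TYROBP rose in CLCS against healthy tissue by 1.82 on the log2 scale (SE 0.27, limma adjusted p = 0.0188), having entered this test through the CLCS libraries, where its reads were high. When single libraries were dropped, TYROBP was still called without healthy library 2 (adjusted p = 0.0412) and had an adjusted p of 0.0526 to 0.0897 in the other 5 fits, those without healthy library 1 or 3 or any CLCS library.

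Of the signaling genes, TRAF6 had 7, 5 and 8 reads in the healthy libraries, 16, 24 and 10 in the untreated libraries and 15, 14 and 5 in the CLCS libraries, with a log2 fold change of 1.06 for untreated against healthy (SE 0.39, limma adjusted p = 0.232). NFATC1, the main transcription factor of osteoclast formation, had 1 to 7 reads in healthy and 1 to 4 in both defect groups, too few for a test. FOS and NFKB1 were highest in untreated library 3, at 72 and 48 reads, against at most 9 and 20 in the other libraries. OCSTAMP, a fusion protein related to that of DCSTAMP, had 0, 0 and 1 reads in the healthy libraries, 0, 4 and 0 in the untreated libraries and 2, 1 and 3 in the CLCS libraries.

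**Figure D4:**
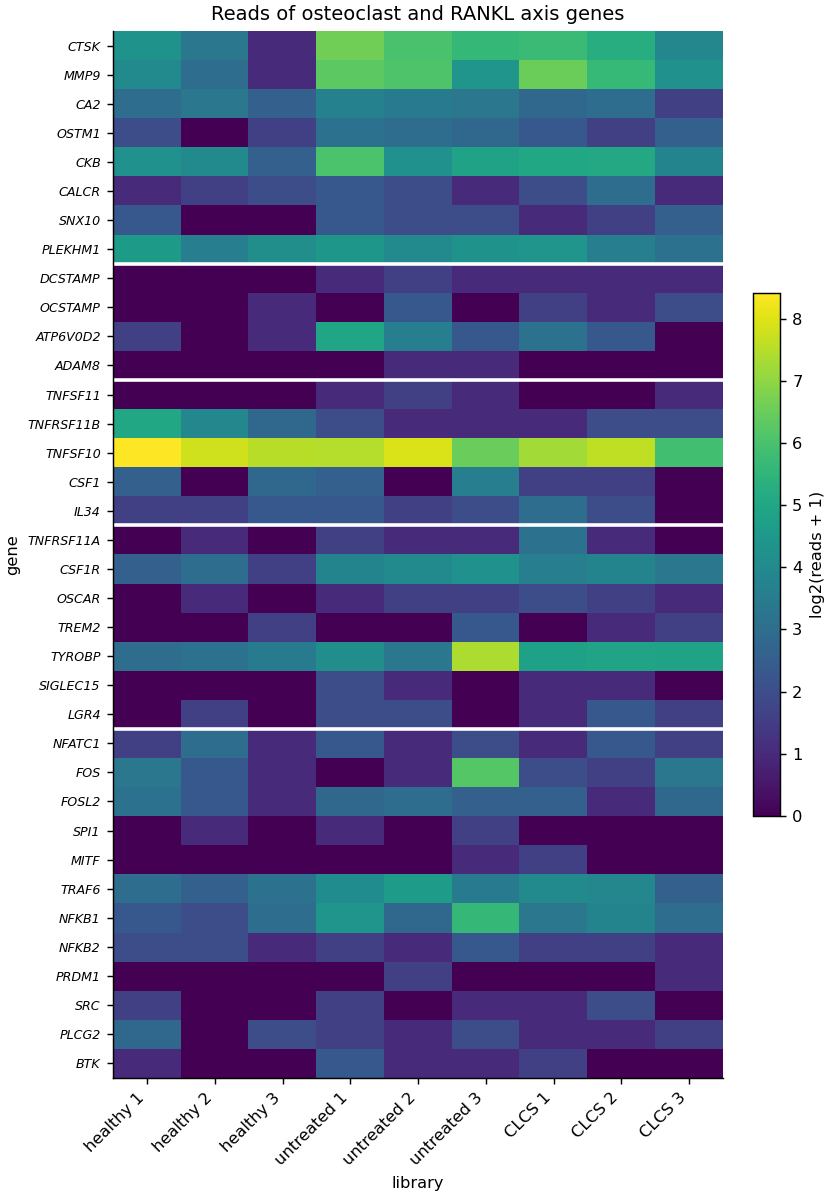
Reads of the 36 osteoclast and RANKL axis genes in the 9 libraries, as log2(reads + 1) by color, with white lines between effectors, fusion genes, ligands and decoy, receptors, and signaling genes. CTSK, MMP9 and ATP6V0D2 are brighter in the untreated than in the healthy libraries, TNFRSF11B is darker, and most rows hold few reads in any library.

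The listed V-ATPase subunits, ATP6V0D2 among them, moved in both directions. Of 25 listed subunits 17 were matched by symbol and 5 were tested, none was called in any comparison, and the median log2 fold change was -0.24 in both comparisons with healthy tissue. Their summed normalized reads, mostly those of ATP6V1C1, were 232 to 266 in healthy, 218 to 249 in untreated and 221 to 258 in CLCS libraries. In untreated against healthy, 4 of the 17, ATP6V0D2 among them, were higher and 1 was lower with groups that did not overlap. Of all genes with a read, 6.61% were higher and 5.95% lower in this way. ATP6V1G1 was 1 of those higher, with 21, 8 and 10 reads in the healthy libraries, 30, 22 and 24 in the untreated libraries and a log2 fold change of 0.92 (limma adjusted p = 0.278), and ATP6V1A, named after its values were seen, had 0 reads in the healthy libraries and 6, 4 and 1 in the untreated ones. ATP6V1H had a log2 fold change of 0.88 in CLCS against healthy (limma adjusted p = 0.117). ATP6V0D1, the paralog that other cells use in place of ATP6V0D2, had 0 to 2 reads in every library. ATP6V1C1, the most abundant subunit of the list by reads, had 141 to 168 reads in healthy, 117 to 151 in untreated and 102 to 136 in CLCS libraries. ATP6V1C2, named after its values were seen, had 21 to 24 reads in healthy, 4 to 11 in untreated and 6 to 10 in CLCS libraries, with log2 fold changes of -1.52 (limma adjusted p = 0.0829) and -1.25 (adjusted p = 0.0904).

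Other cathepsins were measured beside CTSK. Of 15 listed, CTSK included, 11 were matched by symbol, 4 or 5 were tested in a comparison and none was called. CTSB, a lysosomal cathepsin of most cells, had 43, 35 and 37 reads in the healthy libraries, 53, 40 and 83 in the untreated libraries and 30, 41 and 41 in the CLCS libraries, with log2 fold changes against healthy of 0.45 and 0.13. CTSV had 25 to 45 reads in healthy, 51 to 65 in untreated and 32 to 40 in CLCS libraries, and log2 fold changes of 0.60 and 0.19. CTSS, the cathepsin of antigen-presenting cells, had at most 5 reads in any library. Of the 5 creatine kinase genes, CKB and CKM were matched, and the muscle gene CKM had at most 3 reads in any library.

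Markers of other cell types moved with the same comparisons. The paper's methods call the defect osteochondral, and how much bone the samples held was not tested. Of 14 osteoblast and bone markers, 13 were matched. Their summed normalized reads were 1104 to 3245 in healthy, 3464 to 6212 in untreated and 4645 to 5572 in CLCS libraries, and healthy library 1, which had the most CTSK of its group, also had the highest bone sum of its group. COL1A1, the main collagen gene of bone and fibrous tissue, rose in both defect groups (log2 fold changes 3.79, adjusted p = 0.0398, and 3.95, adjusted p = 0.0277, by limma), and IBSP, the gene of bone sialoprotein, rose in CLCS tissue (2.46, adjusted p = 0.0277). In untreated against healthy, the COL1A1 call was lost whichever of the 6 libraries was dropped (adjusted p 0.0588 to 0.108). In CLCS against healthy, COL1A1 was still called without healthy library 1 alone and IBSP without healthy library 1 or 2, and both were lost without healthy library 3 or any CLCS library. Log2 fold changes against healthy were above 0 for 6 of the 8 tested bone markers in untreated and for 7 of 8 in CLCS tissue. PTH1R was lower in every untreated library than in any healthy one (-0.85, limma adjusted p = 0.168).

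Monocyte and macrophage markers, 16 of 20 matched, summed to 323 to 577 normalized reads in healthy, 516 to 1324 in untreated and 812 to 1177 in CLCS libraries, and most of the sum was STAB1. Of 5 tested against healthy tissue, the log2 fold change was above 0 for 4 in untreated and for 3 in CLCS tissue. AIF1, named after its values were seen, was lower in every defect library than in any healthy one. Its log2 fold changes were -0.44 (limma adjusted p = 0.529) in untreated and -0.58 (adjusted p = 0.415) in CLCS tissue. CD163, a marker of tissue macrophages, had 0 reads in 8 of the 9 libraries and 1 in untreated library 3. Chondrocyte markers, 13 of 20 matched, summed to 8686 to 12469 in healthy, 831 to 10161 in untreated and 10177 to 28266 in CLCS libraries. COL2A1 made up 55.1% to 90.3% of these sums. By limma, 9 of these markers were tested against healthy tissue. Their log2 fold change was above 0 for 0 of 9 in untreated (median -1.38) and for 4 of 9 in CLCS tissue (median -0.30). COL2A1 was higher in every CLCS library than in any healthy one (log2 fold change 0.71, limma adjusted p = 0.462). Another marker of the list, CYTL1, named after its values were seen, had 59 to 317 reads in healthy and 25 to 39 in CLCS libraries (limma log2 fold change -1.51, adjusted p = 0.274). CILP, a chondrocyte gene of the intermediate cartilage layer, fell in both defect groups by limma, with log2 fold changes of -2.78 (adjusted p = 0.0381) and -2.39 (adjusted p = 0.0361). The untreated call of CILP was lost whichever library was dropped, and the CLCS call was kept only without healthy library 1. Skeletal muscle markers summed to 24.5 to 52.4 normalized reads in healthy, 16.3 to 20.5 in untreated and 15.7 to 27.4 in CLCS libraries. Neutrophil and erythroid markers summed to 5.44 to 15.4 in any library. Of the 7 matched genes in each of these 2 lists, 1 muscle marker and 0 neutrophil and erythroid markers were tested. None was called, which says little with so few tested. The part of any of these cell types in the values of the members was not tested.

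**Figure D5:**
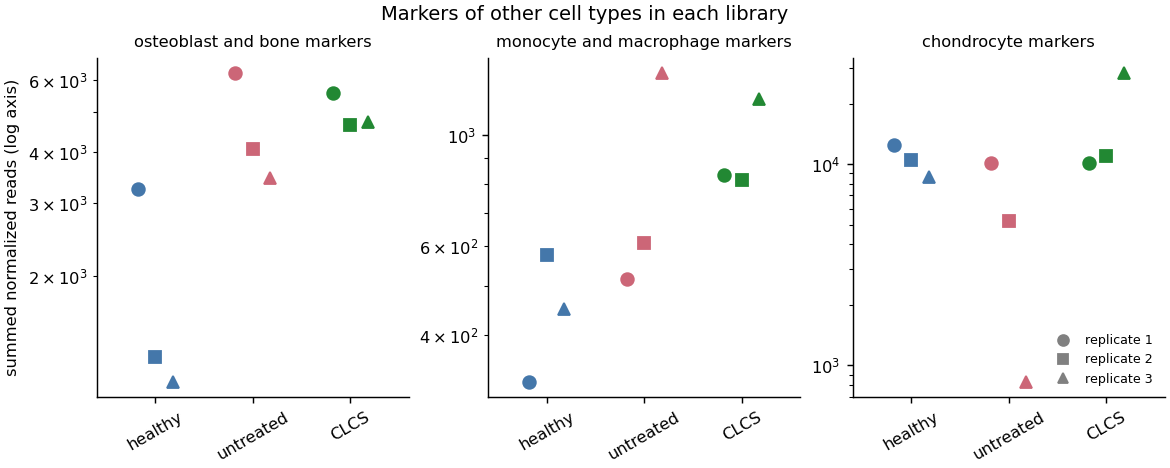
Summed normalized reads of the osteoblast and bone, monocyte and macrophage, and chondrocyte markers in each of the 9 libraries. The bone sums of both defect groups, from 3464 to 6212, lie above those of healthy tissue, and the chondrocyte sum of untreated library 3 is the lowest at 831.

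Over all 9 libraries, the genes whose profiles were most like those of the 2 tested members were found by the root mean square difference of log2(normalized reads + 1), each gene centered on its own mean, among 3117 genes with a symbol. For CTSK these were B4GALNT1 (0.53), MMP9 (0.54) and MTUS1 (0.61), where the median over the genes was 1.65. B4GALNT1 had means of 4.19 ± 2.95, 37.3 ± 16.8 and 34.8 ± 16.2 normalized reads in healthy, untreated and CLCS tissue (SD, n = 3 each). For CKB they were ADAMTSL1 (0.27), KIAA1551 (0.35) and MAP4K4 (0.38), against a median of 0.99. The CKB profile moved little around its mean, so many genes lay close to it, and the libraries share their depth and size factors in all these profiles.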

How the data were processed

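RNA sequencing of 9 libraries was used, 3 each of healthy cartilage, untreated defects and CLCS treated defects. According to their methods, the authors aligned read pairs with TopHat and Bowtie to oryCun2.0, disregarded multiple alignments, counted with eXpress and normalized with DESeq2. Versions, annotation and strand setting are not given in the sources used here. For each gene the deposited tables hold a signal, the count divided by the DESeq2 size factor of the library. Dividing a column by its smallest value above 0 gave whole reads for 100% of values (tolerance 0.001). The 3 healthy columns are identical in both tables and were used once.

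Genes were filtered with filterByExpr (edgeR 4.0.16) on the reads of the 6 libraries compared, with its defaults of 10 reads and 15 in total, and log2(value + 1) was fitted with limma 3.58.1 in R 4.3.3. Adjusted p is by Benjamini-Hochberg over all genes tested, with calls at 0.05. Single values had a two-sided exact permutation test over the 20 labelings of 6 libraries. Ratios of summed reads have 95% Clopper-Pearson intervals, which like the limit of 3 reads cover counting error only. Alternatives were other pseudocounts, no filter, edgeR, DESeq2 1.42.0, log2 CPM with TMM and a prior count of 2, all 9 libraries in 1 fit, a replicate block and leaving out each library. The scripts were tested on simulated data.

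Libraries of the same number deviated together from their group means across 3812 genes, with correlations of 0.28, 0.14 and 0.19 for CLCS with healthy and of 0.25, 0.33 and 0.30 for CLCS with untreated, so their numbers were taken as pairs. For untreated with healthy they were 0.29, 0.13 and -0.04, and no pairing was taken. Pairs of CLCS with both other groups would pair untreated with healthy as well, so the pairing is not established, and the labels do not give it. The members and gene lists were chosen with earlier results of these data known. Besides the members, the genes named were the called members of each list or else up to 4 of the highest mean, 12 close partners of the members, neighbors within 1000 bases and the 3 genes most alike in profile. A gene outside this rule is marked where it is named.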

Additional observations from a re-analysis of the deposited data

How the results depend on the processing

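CKB in each comparison, and all members in CLCS against untreated, stayed without a call under every alternative run. In untreated against healthy, the main test called 0 members, a pseudocount of 5, DESeq2 and the replicate block 1 each, edgeR without a filter 3 and DESeq2 without a filter 2. CTSK was called each time, at log2 fold changes of 2.37 (pseudocount 5), 2.70 (DESeq2), 3.07 (replicate block, adjusted p = 0.0459), 2.71 (edgeR without a filter) and 2.70 (DESeq2 without a filter). ATP6V0D2 stood at 2.65 in the main scale, 1.43 with a pseudocount of 5, 3.63 by edgeR and 3.76 by DESeq2 without a filter, and TNFRSF11B at -2.63, -1.58, -3.38 and -3.51. In CLCS against healthy, 0 members were called in the main test, 1 with the replicate block (CTSK 2.23, adjusted p = 0.0406) and 2 by edgeR without a filter (CTSK 2.0, TNFRSF11B -2.59). In this comparison the block also called MMP9 (adjusted p = 0.0144), and it changed no other call of a member. The fits without a filter by edgeR and DESeq2 were chosen after seeing the data.

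Over all genes, untreated against healthy had 89 calls in the main test, 20 without a filter, 271 with DESeq2, 173 with all 9 libraries in 1 fit, 497 by edgeR and 260 by DESeq2 without a filter, and 2 to 7 with a library left out. CLCS against healthy had 104, with 13 without a filter, 253 with DESeq2, 400 by edgeR and 236 by DESeq2 without a filter, and 0 to 81 with a library left out, the lowest without CLCS library 1. CLCS against untreated had 0 calls in the main test (95 at an unadjusted p under 0.05) and in each alternative but edgeR without a filter, which had 29. The cause of these differences was not tested. The small number of deposited reads was the limit for DCSTAMP, TNFSF11 and TNFRSF11A, with a few reads in a library.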
